A study of Mus musculus with 23 samples.

Results

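Expression of 8 genes of cholesterol synthesis and its SREBP2 control (Hmgcs1, Sqle, Insig1, Idi1, Fdft1, Lss, Cyp51, and Dhcr7) was examined in the brains of adult mouse progenies after maternal protein restriction with or without folic acid. The genes were taken by name from the annotation of the array, where they had 9 of 39429 probes, 2 for Fdft1 and 1 for each of the others, among 31829 gene names. All progenies were C57BL/6J males that grew from in vitro fertilized eggs in surrogate mothers of the ICR strain, were delivered by caesarean section, were raised by foster mothers, and consumed the control diet after weaning. The surrogate mothers had consumed the control diet (CD), the protein-restricted diet (PR), or the PR diet with supplementary folic acid (FA). The diet of the foster mothers is described in more than 1 way in the sources used here. Whole brain RNA of 4 mice per group was hybridized to 12 one-colour Agilent arrays, 1 per mouse, and the values below are log2 of the deposited normalized intensity, in which a difference of 1 is a doubling. Methylation arrays of the same study were not analysed here.

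Cholesterol does not cross from blood into the brain in quantity, so the adult brain makes its own, mostly in glia, and oligodendrocytes use much of it for myelin. Synthesis runs from acetyl-CoA through mevalonate and isoprenoid units to squalene, which is oxidized, closed into lanosterol, and trimmed to cholesterol. When sterols in the endoplasmic reticulum are low, the escort protein Scap carries SREBP2, the product of Srebf2, to the Golgi for cleavage, and the released factor binds sterol regulatory elements in the promoters of these genes. When sterols are high, Insig1 holds Scap back, and Insig1 is itself a target of the pathway.

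The 250 bases before the start of Hmgcs1, Idi1, and Insig1 are shown because Hmgcs1 and Idi1 were called lower in a comparison below and Insig1 is the regulator among the 8 genes. They were taken from RefSeq (GRCm38.p6, plus strand, 5′ to 3′, chr13:119690101-119690350, chr13:8885356-8885605, and chr5:28071162-28071411). Capitals mark exact matches to the sterol regulatory element TCACNCCAC, the box CCAAT bound by NF-Y, and the box GGGCGG bound by Sp1, each read on either strand, and no match overlaps another there.
Hmgcs1: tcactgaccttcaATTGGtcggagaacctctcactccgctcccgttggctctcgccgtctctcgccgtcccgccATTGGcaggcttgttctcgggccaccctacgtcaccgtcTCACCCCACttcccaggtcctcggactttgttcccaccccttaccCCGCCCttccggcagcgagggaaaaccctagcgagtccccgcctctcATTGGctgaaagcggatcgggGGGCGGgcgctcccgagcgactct
Idi1: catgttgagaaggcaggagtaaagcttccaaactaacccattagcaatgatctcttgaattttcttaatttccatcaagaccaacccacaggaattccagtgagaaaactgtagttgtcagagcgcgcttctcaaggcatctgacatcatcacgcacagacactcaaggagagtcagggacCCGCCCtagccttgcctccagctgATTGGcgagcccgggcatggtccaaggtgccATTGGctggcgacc
Insig1: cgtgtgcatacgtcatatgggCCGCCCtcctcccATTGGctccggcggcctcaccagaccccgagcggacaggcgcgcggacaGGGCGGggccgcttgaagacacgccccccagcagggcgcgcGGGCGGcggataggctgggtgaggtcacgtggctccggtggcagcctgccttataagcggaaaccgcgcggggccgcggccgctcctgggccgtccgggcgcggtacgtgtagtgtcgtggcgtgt
RefSeq promoters were found for 6 of the 8 genes, all but Sqle and Fdft1. In a window from 250 bases before to 50 after the start, the sterol element was matched in Hmgcs1 alone of these 6, beginning 137 bases before the start. It was matched in 1.24% of all 32851 promoters and in 1.44% of genes with a promoter. Elements with other letters were not searched for, so that a gene without a match may still hold one. All 6 genes had a CCAAT box and a GGGCGG box in at least 1 promoter, against 41.1% and 38.2% of all 27025 genes with a promoter. These matches describe the letters in the window and were not tested for binding.

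The 4 arrays of each diet were on 1 slide and in 1 scan of their own, so that slide and maternal diet cannot be told apart in any value below. The PR and FA groups were both compared with the same CD arrays. More of the 43020 spots were well above background in the PR group (31266 to 33478) and the FA group (30408 to 31672) than in the CD group (27068 to 28458). Markers of neurons (3 measured), astrocytes (6), and oligodendrocytes (7) were well above background on every array. The summed intensity of 4 pituitary markers was 1897 to 2014 in CD brains, 916 to 1154 in PR brains, and 578 to 1465 in FA brains, and Gh and Prl, the hormones that define the gland, were well above background on 4 CD arrays, 0 PR arrays, and 1 FA array. The part of these differences in the results below was not tested. In bulk tissue, fewer cells of a type and less RNA per cell cannot be told apart.

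All 9 probes were well above background on all 12 arrays. By limma with Benjamini-Hochberg adjustment over the whole array, 2 of the 8 genes differed between PR and CD progenies, namely Fdft1, which was higher, and Hmgcs1, which was lower. Between FA and CD progenies, 2 of 8 differed, Fdft1 again higher and Idi1 lower. Between FA and PR progenies, 0 of 8 differed by limma, and 0 had an unadjusted p under 0.05. The share of genes called was 25.0% in both comparisons with CD. It lay near the share of all probes, 30.0% for PR against CD (13.4% higher and 16.6% lower) and 34.4% for FA against CD (16.4% higher and 18.0% lower), and therefore did not set these genes apart. Between FA and PR, 0.614% of all probes were called. In each comparison with CD, the arrays of the groups did not overlap for 2 of the 8 genes, against 33.2% of all probes for PR and 36.9% for FA. The median log2 difference of the 8 genes was -0.12 for PR against CD and -0.07 for FA against CD, where the medians of all probes were -0.02 and -0.01, with 5 genes lower and 3 higher each time. Without adjustment, 4 genes for PR against CD and 2 for FA against CD had p under 0.05 by limma. So did 41.1% and 44.4% of all probes in these comparisons, and 14.1% of all probes for FA against PR. Array-wide, 44.7% of the calls for PR against CD were higher, which became 56.2% with normexp background correction and 55.5% after dim probes were removed.

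**Figure D1:**
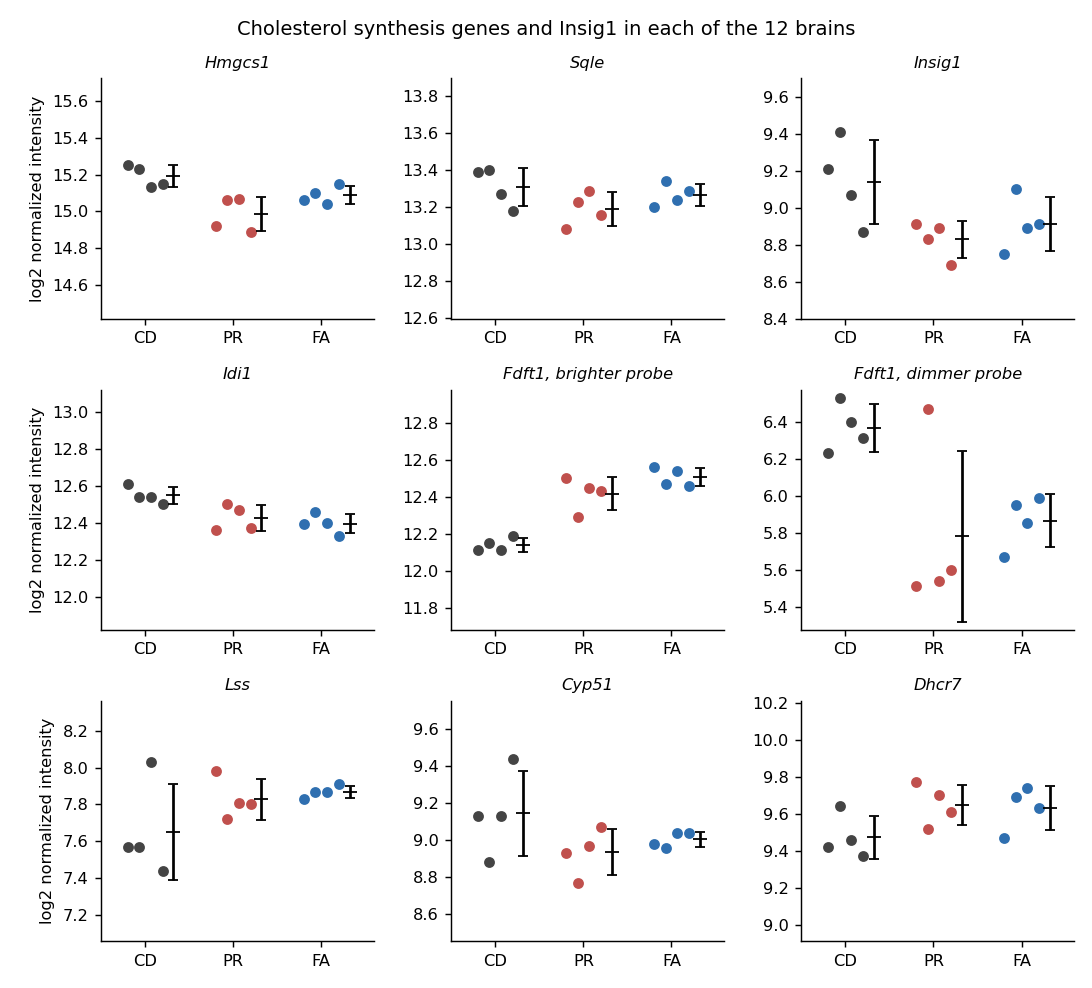
Log2 normalized intensity (vertical axis, a span of 1.3 in every panel) of each of the 9 probes in the 4 CD, 4 PR, and 4 FA brains (points), with the group mean and SD (bars). The brighter Fdft1 probe is the panel in which all 4 CD points lie below all PR and FA points, and the dimmer Fdft1 probe has 1 PR point at 6.47 beside 3 from 5.51 to 5.60.

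Among the enzymes of the early steps, Hmgcs1 encodes the cytosolic HMG-CoA synthase, an enzyme on the way to mevalonate. It was measured by probe A_55_P2032966, placed on a part of chromosome 13 without fixed position in mm9 (13_random, 114793 to 114852). Hmgcs1 read 15.25, 15.23, 15.13, and 15.15 in CD brains, 14.92, 15.06, 15.07, and 14.89 in PR brains, and 15.06, 15.10, 15.04, and 15.15 in FA brains. All 4 PR brains lay below all 4 CD brains, and the FA brains lay between the group means and overlapped both groups. The PR group was lower than the CD group by a log2 difference of -0.20 (SE 0.06, 1.15-fold, adjusted p = 0.0183). The FA group differed from CD by -0.10 (95% interval -0.23 to 0.02, adjusted p = 0.173) and from PR by 0.10 (-0.02 to 0.22, adjusted p = 0.46). Without PR replicate 4, the difference between PR and CD was -0.17, with an adjusted p of 0.0522. With arrays scaled to their 75th percentile in place of the deposited normalization, it was -0.35, and that between FA and CD was -0.23 (adjusted p = 0.0171).

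Idi1 encodes isopentenyl-diphosphate isomerase, which interconverts the isoprenoid units that are then joined into squalene. Its probe, A_55_P2028961, lies at chr13:8891524-8891583 (mm9). Idi1 read 12.61, 12.54, 12.54, and 12.50 in CD brains, 12.36, 12.50, 12.47, and 12.37 in PR brains, and 12.39, 12.46, 12.40, and 12.33 in FA brains. Each FA brain was below each CD brain, while the highest PR brain and the lowest CD brain had the same rounded value. The FA group was lower than CD by a log2 difference of -0.15 (SE 0.05, 1.11-fold, adjusted p = 0.0311). The PR group differed from CD by -0.12 (95% interval -0.23 to -0.02, adjusted p = 0.08), and FA differed from PR by -0.03 (-0.14 to 0.07, adjusted p = 0.831). The call for FA against CD was lost without CD replicate 1, 2, or 3 or FA replicate 1, 3, or 4, with adjusted p from 0.0546 to 0.0832 and differences from -0.15 to -0.13. With the 75th percentile scaling, the difference between PR and CD was -0.16 (adjusted p = 0.038).

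Fdft1 encodes squalene synthase, the first enzyme committed to sterols, which joins a pair of farnesyl units into squalene. It had the smallest adjusted p of the 8 genes in both comparisons with CD by its brighter probe, A_55_P2033250, whose sequence in the array files is shown because a second Fdft1 probe gave another direction.
Fdft1: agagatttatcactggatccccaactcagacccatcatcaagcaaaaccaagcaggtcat
These 60 bases were assigned to chr14:63765750-63769990 on the minus strand of mm9, a span of 4241 bases, so that the probe joins sequence from separate exons. On this probe, Fdft1 read 12.11, 12.15, 12.11, and 12.19 in CD brains, 12.50, 12.29, 12.45, and 12.43 in PR brains, and 12.56, 12.47, 12.54, and 12.46 in FA brains. Every PR and every FA brain was above every CD brain. The log2 difference from CD was 0.28 for PR (SE 0.05, 1.21-fold, adjusted p = 0.00245) and 0.37 for FA (SE 0.05, 1.29-fold, adjusted p = 0.000408). FA differed from PR by 0.09 (95% interval -0.02 to 0.20, adjusted p = 0.474).

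The dimmer Fdft1 probe, A_52_P136138, lies further towards the 3′ end of the gene, at chr14:63764562-63764621 (mm9). It read 6.23, 6.53, 6.40, and 6.31 in CD brains, 5.51, 6.47, 5.54, and 5.60 in PR brains, and 5.67, 5.95, 5.85, and 5.99 in FA brains. PR replicate 2 was in the range of the CD brains, and the other 3 PR brains were below all of them, as were the 4 FA brains. The log2 difference from CD was -0.59 for PR (SE 0.19, adjusted p = 0.0414) and -0.51 for FA (SE 0.19, adjusted p = 0.0651), opposite in sign to the brighter probe. Without PR replicate 2, the difference between PR and CD was -0.82. Its call was lost without any 1 of 10 of the other arrays, with adjusted p from 0.0533 to 0.105. The unnormalized signal of this probe was 54.9 to 109 over the PR arrays, 58.4 to 62.5 over the FA arrays, and 67.1 to 76.4 over the CD arrays, and the net signal of the negative control spots was 42.7 to 51.2 on the PR arrays, 39.3 to 47.6 on the FA arrays, and 28.1 to 34.8 on the CD arrays. Genes with 2 or more probes well above background were called in opposite directions in 4.25% of cases for PR against CD and in 4.67% for FA against CD, out of 4024 genes. When the Fdft1 probes were averaged, the log2 difference from CD was -0.16 for PR (adjusted p = 0.189) and -0.07 for FA (adjusted p = 0.555). The direction of Fdft1 thus rests on the choice of probe, but the probes were not alike in signal or stability. Apart from averaging, the brighter probe kept its calls at the limit of 0.05 under each alternative. With 1 array left out, its differences were 0.25 to 0.32 for PR and 0.35 to 0.38 for FA. Its unnormalized signal was 3344 to 4250 over the CD arrays, 5682 to 6818 over the PR arrays, and 5337 to 6434 over the FA arrays.

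**Figure D2:**
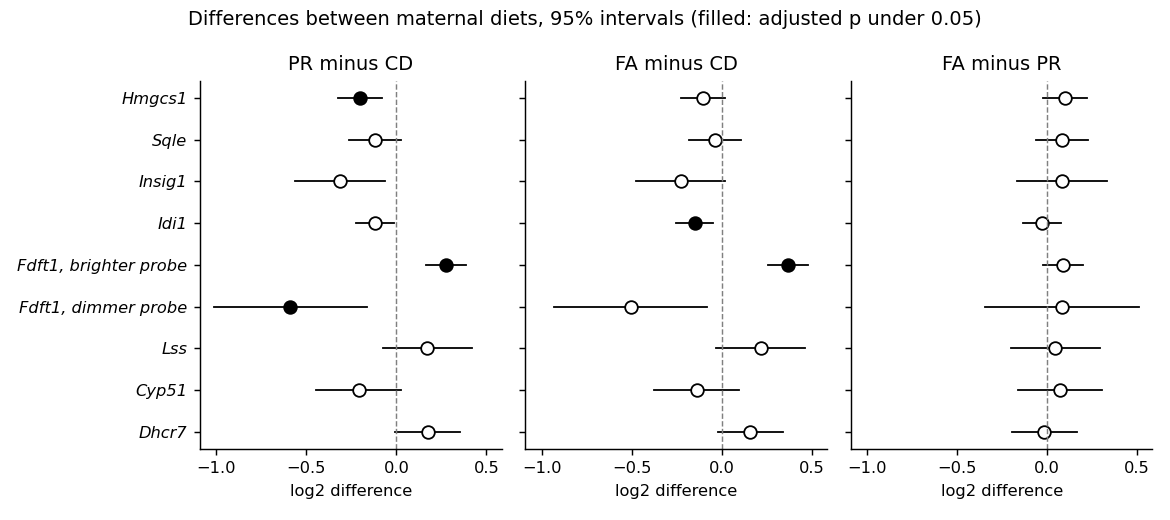
Log2 differences (horizontal axis) of the 9 probes between PR and CD, FA and CD, and FA and PR, with 95% intervals from limma (lines). Filled points have an adjusted p under 0.05. The probes of Fdft1 lie on opposite sides of 0 in both comparisons with CD, at 0.28 and -0.59 for PR.

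Among the enzymes from squalene onwards, Sqle encodes squalene epoxidase, which adds oxygen to squalene and is a control point of the pathway. Sqle (probe A_55_P1975185, chr15:59162688-59162747) read 13.39, 13.40, 13.27, and 13.18 in CD brains, 13.08, 13.23, 13.29, and 13.16 in PR brains, and 13.20, 13.34, 13.24, and 13.29 in FA brains. The 3 groups overlapped. For Sqle, the log2 difference from CD was -0.12 for PR (95% interval -0.26 to 0.02, adjusted p = 0.194) and -0.04 for FA (-0.18 to 0.11, adjusted p = 0.676). The value for FA ranged from -0.084 to -0.0085 with 1 array left out, and it was not called.

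Lss encodes lanosterol synthase, which closes the rings of the sterol. Lss (probe A_51_P296487, chr10:76015992-76016051) read 7.57, 7.57, 8.03, and 7.44 in CD brains, 7.98, 7.72, 7.81, and 7.80 in PR brains, and 7.83, 7.87, 7.87, and 7.91 in FA brains. CD replicate 3 was above all other brains, and the other 3 CD brains were below all PR and FA brains. The log2 difference from CD was 0.17 for PR (95% interval -0.08 to 0.42, adjusted p = 0.274) and 0.22 for FA (-0.03 to 0.46, adjusted p = 0.163). Without CD replicate 3, these differences were 0.30 (adjusted p = 0.00928) and 0.34 (adjusted p = 0.00393), and without CD replicate 4 they were 0.10 (adjusted p = 0.52) and 0.14 (adjusted p = 0.343).

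Cyp51 encodes the demethylase of lanosterol, the first step of the trimming of lanosterol. Cyp51 (probe A_52_P164161, chr5:4081471-4081530) read 9.13, 8.88, 9.13, and 9.44 in CD brains, 8.93, 8.77, 8.97, and 9.07 in PR brains, and 8.98, 8.96, 9.04, and 9.04 in FA brains. CD replicate 4 was the highest and PR replicate 2 the lowest of the 12 brains, and the groups overlapped. Relative to CD, the log2 difference was -0.21 for PR (95% interval -0.44 to 0.02, adjusted p = 0.162) and -0.14 for FA (-0.37 to 0.10, adjusted p = 0.34). Without CD replicate 2, the differences were -0.30 (adjusted p = 0.0393) and -0.23 (adjusted p = 0.0884), and without CD replicate 4 they were -0.11 (adjusted p = 0.344) and -0.04 (adjusted p = 0.745).

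Dhcr7 encodes the reductase that makes cholesterol from its direct precursor in the last step of one branch. Dhcr7 (probe A_55_P2022337, chr7:151033874-151033933) read 9.42, 9.64, 9.46, and 9.37 in CD brains, 9.77, 9.52, 9.70, and 9.61 in PR brains, and 9.47, 9.69, 9.74, and 9.63 in FA brains. CD replicate 2 was within the range of the other groups, and the other 3 CD brains were below every PR and FA brain. Against the CD group, Dhcr7 had a log2 difference of 0.17 for PR (95% interval -0.01 to 0.35, adjusted p = 0.134) and 0.16 for FA (-0.02 to 0.34, adjusted p = 0.161).

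Insig1 encodes the brake on SREBP processing, and it is the member of the 8 that regulates the pathway without catalysing a step of it. Insig1 (probe A_51_P290207, chr5:28404246-28404305) read 9.21, 9.41, 9.07, and 8.87 in CD brains, 8.91, 8.83, 8.89, and 8.69 in PR brains, and 8.75, 9.10, 8.89, and 8.91 in FA brains. CD replicate 4 fell within the range of the PR and FA brains, and the other 3 CD brains were above all PR brains. The log2 difference from CD was -0.31 for PR (95% interval -0.56 to -0.06, adjusted p = 0.0597) and -0.23 for FA (-0.48 to 0.02, adjusted p = 0.143). Without CD replicate 4, the differences were -0.40 (adjusted p = 0.0155) and -0.32 (adjusted p = 0.035), and without CD replicate 2 they were -0.22 (adjusted p = 0.14) and -0.14 (adjusted p = 0.335). With normexp background correction, the difference between PR and CD was -0.29 (adjusted p = 0.0304).

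The order of the group means was CD, FA, PR from high to low for Hmgcs1, Sqle, Insig1, and Cyp51, and CD, PR, FA for Idi1. It was FA, PR, CD for Lss and the brighter Fdft1 probe, and PR, FA, CD for Dhcr7. For none of the 8 genes did FA and PR differ by limma.

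Mice of 1 group differed in these genes too, and pairs of genes were compared after each group mean was subtracted. Over the 12 arrays, 13 of the 28 pairs had a positive correlation of these deviations, and the median r was -0.08. The highest was that of Hmgcs1 and Sqle (Pearson r = 0.78, Spearman rho = 0.71), and r was 0.85 among CD mice, 0.85 among PR mice, and 0.58 among FA mice. An exact permutation test within the groups gave p = 0.0176 for r and p = 0.0233 for rho, which became 0.215 and 0.414 after adjustment over the 28 pairs. Without the 2 arrays farthest from the median of Hmgcs1, r was 0.80. Sqle and Insig1 had r = 0.72 and rho = 0.66 (exact permutation p = 0.023 and 0.0548, adjusted 0.215 and 0.414), and r was 0.86 without the 2 arrays farthest from the median of Sqle. Within the groups, r of this pair was 0.96 among CD mice, 0.04 among PR mice, and 0.95 among FA mice. The lowest was that of Insig1 and Cyp51, with r = -0.76 and rho = -0.58 (exact permutation p = 0.0349 and 0.0777, adjusted 0.245 and 0.435), and r was -0.29 without 2 arrays, so that it rested on those. Of the 28 pairs, 0 passed the adjustment in these exact permutation tests of r or of rho. Arrays of a group share a slide, and a mouse's values share its array.

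**Figure D3:**
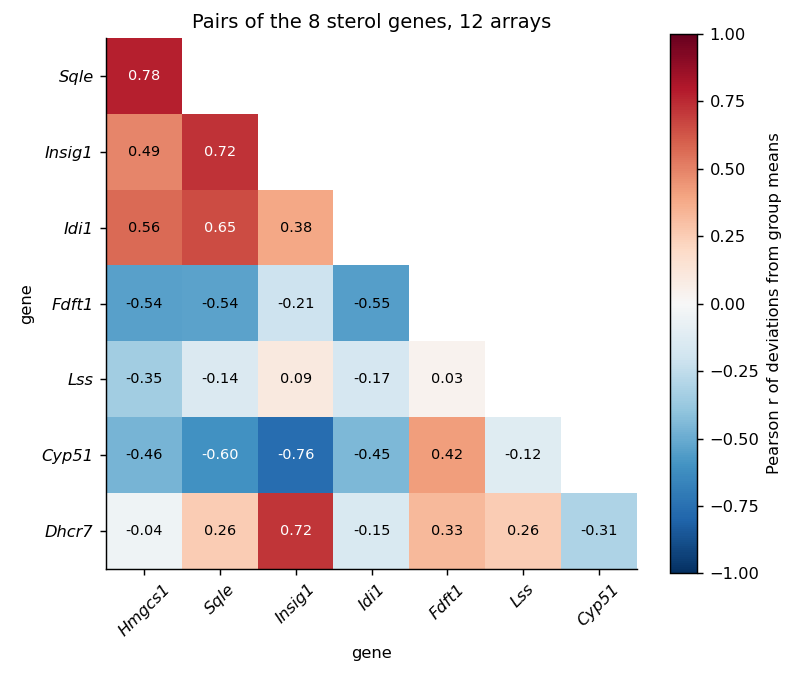
Pearson r (colour and number) between the deviations of each pair of the 8 genes from their group means, over 12 arrays. Hmgcs1, Sqle, Insig1, and Idi1 have positive values with each other, from 0.38 to 0.78, and Cyp51 has negative values with these 4.

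The genes outside the pathway whose deviations most resembled the mean deviation of the 8 genes, among 16923 genes well above background, each at the probe with its highest r, were 2210403K04Rik (r = 0.92), Snrpe (0.92), Ica1 (0.92), Loh12cr1 (0.91), Als2cr4 (0.91), Ndufc1 (0.91), Psmb3 (0.88), and Gm4853 (0.88), over 12 arrays. These r are a description of the genes picked for the highest values, and the median over all genes was 0.06. The mean deviation was not a pattern that the 8 genes shared. The r of a member with the mean of the other members ran from -0.66 (Cyp51) to 0.59 (Dhcr7), with 0.05 for Hmgcs1 and 0.04 for Idi1. For Srebf2, the r with the mean deviation was 0.71 (rank 251), and for Scap it was -0.57 (rank 16270). Whether Srebf2 varied with the single genes was not tested. Of the pathway lists described below, Soat1 (0.79, rank 61) and Tmem97 (0.74, rank 175) ranked above Srebf2.

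The other genes of sterol and fatty acid metabolism were examined as 5 lists with 60 genes, each by its brightest probe. Between PR and CD, 7 were higher, 6 were lower, and 47 did not pass the test, a share called of 21.7% against the 30.0% of all probes. Between FA and CD, 10 were higher, 10 were lower, and 40 did not pass, a share of 33.3% against 34.4%. Between FA and PR, 1 was lower and 59 did not pass. The markers of oligodendrocytes, the main users of sterols for myelin, had a summed intensity of 262077 to 291575 in CD, 271292 to 305437 in PR, and 287530 to 310530 in FA brains. Of these 7 markers, 2, Mog and Cnp, were higher in both comparisons with CD, and 5 were not called. The share called, 28.6% in each, was near or below the 30.0% and 34.4% of all probes. The part of oligodendrocytes in the values of the sterol genes was not tested.

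**Figure D4:**
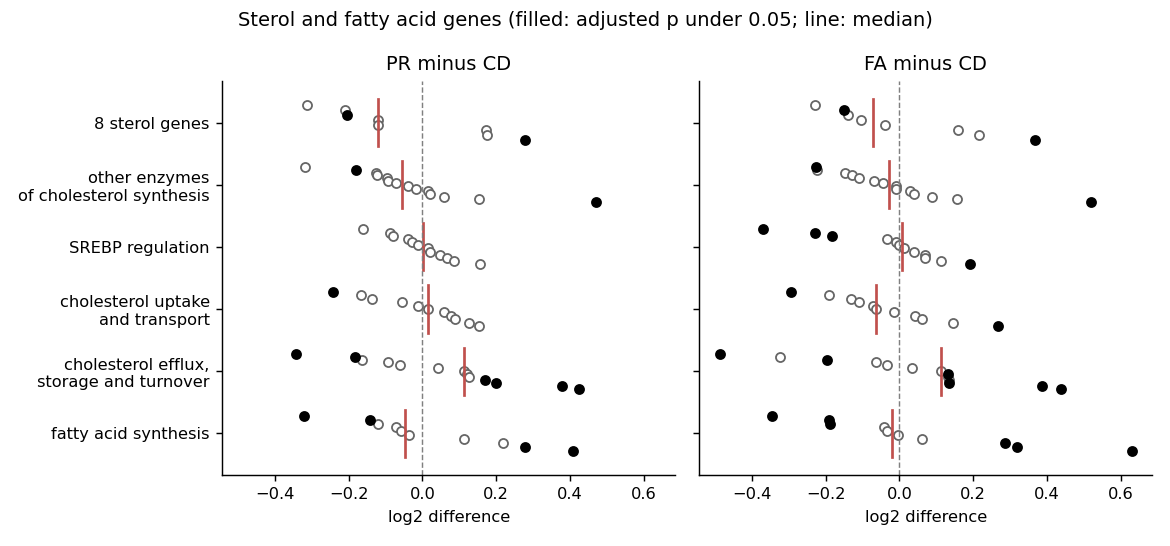
Log2 differences (horizontal axis) between PR and CD and between FA and CD for the 8 genes and the genes of 5 further lists, 1 point per gene at its brightest probe, spread vertically by rank. Filled points have an adjusted p under 0.05, and the red line is the median of the list, -0.12 and -0.07 for the 8 genes.

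Of the 14 other enzymes of cholesterol synthesis, 1 was higher and 1 was lower in each comparison with CD. This was a share of 14.3%, against 30.0% of all probes for PR and 34.4% for FA. Nsdhl, an enzyme of sterol demethylation, was higher by a log2 difference of 0.47 in PR (adjusted p = 0.00398) and 0.52 in FA progenies (adjusted p = 0.00191), while its dimmer probe had -0.17 and 0.02 and was not called. Mvk, mevalonate kinase, was lower in PR (-0.18, adjusted p = 0.0148), where its dimmer probe had 0.02, and Ebp, a sterol isomerase, was lower in FA (-0.23, adjusted p = 0.00439). Pmvk, the kinase after Mvk, had -0.09 and -0.15 (adjusted p = 0.213 and 0.0555), and -0.10 and -0.11 at its dimmer probe.

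Of the 12 genes of SREBP regulation, 0 were called between PR and CD by limma, against 30.0% of all probes. Between FA and CD, 1 was higher and 3 were lower, a share of 33.3% against 34.4% of all probes. Srebf2 read 9.63, 9.66, 9.57, and 9.48 in CD brains, 9.66, 9.44, 9.69, and 9.65 in PR brains, and 9.20, 9.34, 9.14, and 9.19 in FA brains. All 4 FA brains were below all CD and all PR brains. The FA group was lower than CD by a log2 difference of -0.37 (SE 0.07, 1.29-fold, adjusted p = 0.00231) and lower than PR by -0.39 (1.31-fold, adjusted p = 0.0438), while PR and CD differed by 0.02 (95% interval -0.13 to 0.17, adjusted p = 0.844). The call between FA and PR was lost under other settings, with adjusted p of 0.0524 at the 75th percentile scaling and 0.0828 when the 2 groups were fitted alone. It was also lost without any 1 of 10 of the 12 arrays, with adjusted p from 0.0556 to 0.11. A dimmer Srebf2 probe had -0.19 between FA and CD (adjusted p = 0.0646) and -0.20 between FA and PR (adjusted p = 0.247). In FA against CD, Srebf1, which encodes the SREBP of fatty acid synthesis, was lower by -0.23 (adjusted p = 0.035), Erlin1, a protein of the endoplasmic reticulum that takes part in the degradation of its proteins, was lower by -0.18 (adjusted p = 0.00897), and Ube2g2, a ubiquitin-conjugating enzyme, was higher by 0.19 (adjusted p = 0.0309), where its dimmer probe had 0.11 (adjusted p = 0.207). Scap differed from CD by 0.02 in PR and 0.01 in FA (adjusted p = 0.845 and 0.879).

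Of 11 genes of uptake and transport, 1 was lower between PR and CD, and 1 was higher and 1 lower between FA and CD. The shares called were 9.1% and 18.2%, against 30.0% and 34.4% of all probes. Lrp8, an apolipoprotein E receptor of neurons, was lower in both (-0.24, adjusted p = 0.0236, and -0.29, adjusted p = 0.00804), and its dimmer probe had -0.15 and -0.26 and was not called (adjusted p = 0.23 and 0.0509). Tmem97, a sterol-regulated membrane protein, was higher in FA (0.27, adjusted p = 0.00135) and differed by 0.06 in PR (adjusted p = 0.352). The values of Lipa, lysosomal acid lipase, were -0.01 and -0.13 (adjusted p = 0.872 and 0.0557). Vldlr had -0.17 and -0.19 at its brightest probe (adjusted p = 0.101 and 0.0591), where another probe had 0.43 and 0.44 (adjusted p = 0.019 and 0.0147).

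Of 13 genes of efflux, storage, and turnover, 4 were higher and 2 lower in both comparisons with CD. The share called was 46.2% in each, against 30.0% of all probes for PR and 34.4% for FA. Whether this list differed from the array was not tested. Abca1, the transporter that loads cholesterol onto apolipoproteins, was lower by -0.34 in PR (adjusted p = 0.00193) and -0.49 in FA (adjusted p = 0.00021), and Abcg1, a partner in efflux, by -0.18 (adjusted p = 0.0141) and -0.20 (adjusted p = 0.00813). Cyp46a1, the neuronal hydroxylase by which the brain clears cholesterol, was higher by 0.38 (adjusted p = 0.00434) and 0.39 (adjusted p = 0.00315), and Cyp27a1, a mitochondrial sterol hydroxylase, by 0.42 (adjusted p = 0.008) and 0.44 (adjusted p = 0.00552). The other 2 higher genes were Nr1h2, which encodes the sterol-sensing receptor LXRβ (0.17 and 0.13), and the neuronal transporter Abcg4 (0.20 and 0.13, and 0.32 and 0.25 at its dimmer probe), which were named after their values were seen.

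Of 10 genes of fatty acid synthesis, 2 were higher and 2 lower between PR and CD, and 3 were higher and 3 lower between FA and CD. These shares were 40% and 60%, against 30.0% and 34.4% of all probes, and the difference from the array was not tested. Fads1 and Fads2, the desaturases of polyunsaturated fatty acids, were higher by 0.41 and 0.28 in PR and by 0.63 and 0.32 in FA (adjusted p = 0.00017 and 0.00785, and 4.35e-05 and 0.00323). A dimmer Fads2 probe had 0.20 in PR (adjusted p = 0.0451) and -0.02 in FA (adjusted p = 0.858). Fasn, fatty acid synthase, was lower by -0.32 in PR (adjusted p = 0.000879) and -0.35 in FA (adjusted p = 0.000477). Acly, which supplies cytosolic acetyl-CoA, was lower by -0.14 (adjusted p = 0.0282) and -0.19 (adjusted p = 0.00547), and its dimmer probe had -0.54 and -0.49. At dimmer probes, Me1 (0.25 and 0.20, adjusted p = 0.000471 and 0.00142) and Acss2 (0.23 and 0.25, adjusted p = 0.046 and 0.0253) were higher in PR and FA. Another Me1 probe had -0.04 and 0.05. A dimmer Acaca probe was lower in both (-0.82 and -0.70, adjusted p = 0.00654 and 0.0116). These genes were named after their values were seen.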

How the data were processed

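RNA of whole brains from 12 adult male progenies (CD, PR, and FA, 4 each) was labelled with Cy3 and hybridized to Agilent arrays by the authors. Per the file headers, spots were quantified with Feature Extraction 11.0.1.1, and positions refer to mm9. The deposited table holds 1 linear intensity per probe after qspline normalization by the authors, and each of its columns matched its own scanner file best. The scanner intensity was used for alternatives and for the flags for background and outlier spots. No array had a saturated spot.

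Log2 of the deposited intensities was tested with limma 3.58.1 (R 4.3.3) over 39429 probes and all 3 groups together, with Benjamini-Hochberg adjustment over all probes and a limit of 0.05. The fit was tested on simulated data. Control spots were left out, and a gene was taken at its brightest probe. Groups and replicate numbers were taken from the labels. The labels do not say that the mice came from separate litters, and the p-values measure the spread between these samples. The number of arrays limits the precision. Genes named were the 8 members, Srebf2, Scap, the 4 of each list with the smallest adjusted p, and the 8 most alike in deviation. Alternatives were other scalings, background correction, filters, variance models, a replicate block, averaged probes, the authors' Tukey test, the study's limits, and leaving out each array. The members and lists were chosen with earlier results of these data known. Files of the methylation arrays were not used here, and 2 further genes of the rule are not reported here.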

Additional observations from a re-analysis of the deposited data

Results flagged for a closer look

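In 96 groups of 4 arrays (32 probes of the genes named), the highest or lowest array was set against the others by the ratio of its gap to the range of the group (Dixon), and 4 groups passed the critical value. Chance alone passes about 1 group in 20. PR replicate 2 stood apart in 3 of these: it read 6.47 on the dimmer Fdft1 probe, where the other PR arrays read 5.51 to 5.60, 9.39 for Nsdhl, where the others read 9.58 to 9.60, and 9.44 for Srebf2, where the others read 9.65 to 9.69. FA replicate 3 read 11.11 for Erlin1, where the highest array of its group read 11.25. Srebf2 differed between the FA and PR groups by a log2 difference of -0.39 (limma, adjusted p = 0.0438), where slide and diet cannot be told apart. This call was lost at the 75th percentile scaling (adjusted p = 0.0524), with the 2 groups fitted alone (0.0828), and without any 1 of 10 of the 12 arrays.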

How the results depend on the processing

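Of 33 differences called for the genes named, 25 kept their call under each of the 21 alternative settings run for all of them, and the 8 that lost it at least once were Hmgcs1 and the dimmer Fdft1 probe (PR against CD), Idi1 (FA against CD), Srebf2 (FA against PR), Lrp8 and Acly (PR against CD), and Srebf1 and Ube2g2 (FA against CD). Probes of a gene were averaged for Fdft1 alone, which turned it to -0.16 for PR against CD and -0.070 for FA against CD and left 0 of the 8 genes higher in either. Under the study's limits (adjusted p under 1e-04 and at least 2-fold), 0 genes were called higher or lower. For PR against CD, 2 genes were lower with the 75th percentile scaling (with or without outlier spots), normexp correction, and the replicate block, and 3 with trend and robust variance. For FA against CD, 2 were lower with the 75th percentile scaling, with or without outlier spots. With 1 array left out, 1 to 2 genes were higher and 0 to 2 lower in each comparison with CD. The dimmer Fdft1 probe turned to -0.045 between FA and PR with the 75th percentile scaling, also without outlier spots, and to -0.0086 with normexp correction (-0.0088 to 0.31 with 1 array left out), and Dhcr7 ranged from -0.060 to 0.038 there with 1 array left out.

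Over the 5 lists, 12 genes were lower between PR and CD with the 75th percentile scaling. Between FA and PR, 2 were higher after dim probes were removed, and 0 were lower with the 75th percentile scaling or the replicate block. The labels do not say whether the replicate numbers pair the mice. The r of same-numbered deviations ran from -0.06 to 0.20, which cannot decide it. The negative control signal rose from replicate 1 to replicate 4 in each group (28.1 to 34.8 in CD, 42.7 to 51.2 in PR, and 39.3 to 47.6 in FA). The replicate block took the calls over the array from 11820 to 10986 for PR against CD. For FA against PR, the block took them from 242 to 11, where 8 were called by the Tukey test. With the block, limma called Insig1 lower in PR (-0.31, adjusted p = 0.0482), and Hmgcs1 had an adjusted p of 0.0427. Causes of these changes were not tested, except where averaging itself combines probes of opposite sign. Calls on dim probes are limited by the background, which was lower on the CD arrays.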
